A study of Mus musculus with 14 samples.

Results

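The 10 genes described here are markers of the resident Kupffer cell of the liver, namely *Adgre1*, *Clec4f*, *Cd68*, *Csf1r*, *Timd4*, *Marco*, *Vsig4*, *Cd5l*, *Msr1* and *Mertk*. They were taken by symbol from the 17552 genes of the deposited expression table, and all 10 were found. The samples were livers of male *Apoe*-deficient mice, of the C57BL/6 strain by the labels and of C57BL/6J background by the paper's methods, which lack apolipoprotein E, a ligand for the uptake of lipoproteins. The labels give an age of 8 weeks. The control group received a Western diet, and the other group received this diet with erythrodiol, a triterpene of the olive, at 10 mg/kg. The diets lasted 8 weeks by the labels and longer by the paper's methods. For each group 7 libraries of polyA RNA were sequenced, each from a pool of 2 or 3 mice, so that both groups carried the same *Apoe* deficiency and the same diet and no wild-type or chow-fed liver was analysed here. *Apoe* itself was listed with 9403 counts in the control against 8293 with erythrodiol.

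For each gene the table holds an expected count in either group, in which all 7 libraries are added up. The sums were 122889032 counts in the control against 124686047 with erythrodiol. No gene thus has a value per library or a replicate error, and the differences below have no replicate check and no test. Intervals are at 95% and cover counting error only. Control libraries held between 34856340 and 55244294 clean reads and erythrodiol libraries between 47669656 and 48058606. By the share of reads mapped to genes, a single control library supplied between 9.12% and 17.3% of its group's mapped read pairs, and a single erythrodiol library between 13.9% and 14.6%. The part of any library in the values of a gene could not be separated.

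Kupffer cells are the macrophages that reside in the sinusoids of the liver. They clear particles, bacteria, modified lipoproteins and dying cells from portal blood. Signalling through the CSF1 receptor maintains them, and they carry scavenger, complement and lectin receptors by which they are distinguished from other liver cells. Clec4f, Timd4, Vsig4, Marco and Cd5l are used as marks of the resident cell, while Adgre1, Cd68, Csf1r, Msr1 and Mertk are also found on other macrophages.

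In the erythrodiol group 8 of the 10 genes had a lower scaled count than in the control, and 2 had a higher one, while 28.8% of all tested genes were lower and 71.2% higher. *Marco* differed most, with a ratio of 0.477, and *Adgre1*, *Cd5l*, *Clec4f*, *Vsig4*, *Msr1* and *Timd4* followed with ratios between 0.594 and 0.717. *Csf1r* was slightly lower, *Cd68* nearly equal and *Mertk* higher, although *Cd68* was below the control under the other scalings of all genes. Together the 10 genes made 1061 CPM in the control and 717 CPM with erythrodiol (counts scaled to a column total of 1000000), a log2 ratio of -0.57. In whole liver, fewer Kupffer cells and less of these RNAs per cell cannot be told apart.

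**Figure D1:**
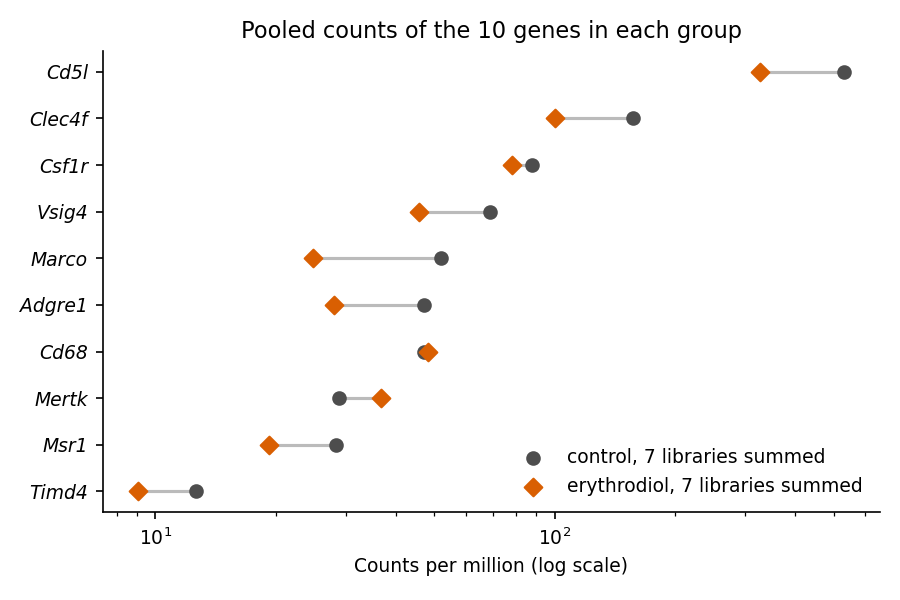
CPM of each gene in the control group (grey circles) and the erythrodiol group (orange diamonds), on a log axis, where each point is the sum of 7 libraries. The distance between the points is widest for *Marco*, from 51.9 to 24.8, and the erythrodiol point is the higher one for *Mertk*, at 28.9 and 36.8, and for *Cd68*, at 47.0 and 48.2.

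Past a 2-fold change, 1 of the 10 genes (*Marco*) was lower and 0 were higher. Among all 13291 genes that reached 100 counts over both groups, 0.549% were past 2-fold lower and 0.218% past 2-fold higher. At 1.2-fold, 7 of the 10 genes were lower and 1 was higher, while 11.4% of all genes were lower and 33.7% higher. The median log2 ratio was -0.57 over the 10 genes and 0.16 over all genes. With that median of all genes set to 0 instead of scaling by totals, 8 of the 10 were past 1.2-fold lower and 0 higher.

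The ratio of the groups increased with gene length over the whole table. The median log2 ratio was -0.18 among the tenth of genes from 333 to 1211 bases and 0.33 among the tenth from 6116 to 26655 bases. The 10 genes have lengths from 1263 bases (*Cd68*) to 4342 bases (*Mertk*). Each was therefore set against the 200 genes nearest in length. On that scale 8 of the 10 were past 1.2-fold lower and 0 higher, at 17.7% and 9.55% of all genes, and the median log2 ratio was -0.69. The cause of the relation to length was not tested.

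**Figure D2:**
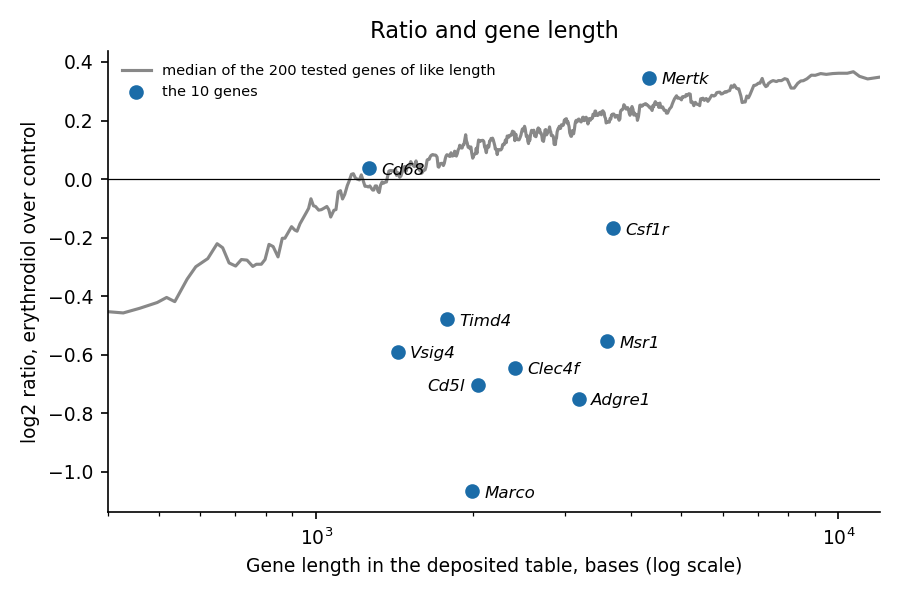
The scaled log2 ratio, erythrodiol over control, against gene length in bases on a log axis, with the 10 genes as points and, as a grey line, the median of the 200 tested genes nearest in length. *Cd68* and *Mertk* lie close to the line and the other 8 genes lie below it.

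*Marco*, the macrophage receptor with collagenous structure, binds bacteria and modified lipoproteins (chr1:120474538-120505024 of GRCm38, 1985 bases). It had 6374 counts in the control against 3086 with erythrodiol, or 51.9 and 24.8 CPM. The ratio was 0.477 with a counting interval of 0.457 to 0.498, a log2 ratio of -1.07. Only 0.444% of the tested genes had a lower ratio, and 0.293% had a lower one relative to their length. *Msr1*, the class A scavenger receptor of acetylated lipoprotein, belongs to the same receptor class (chr8:39543232-39642750, 3611 bases). Its counts were 3475 and 2401, and its ratio was 0.681 (0.646 to 0.718). Within each group, which needs no scaling, *Marco* had 1.83 counts for each count of *Msr1* in the control and 1.29 with erythrodiol. *Marco* thus differed more than *Msr1* (log2 difference -0.51, counting interval -0.61 to -0.42). Proportions of pairs, here and below, and their intervals are not corrected for gene length. Relative to genes of like length the log2 ratio was -1.16 for *Marco* and -0.76 for *Msr1*.

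*Cd5l* encodes a secreted scavenger protein of macrophages that protects them from apoptosis (chr3:87357881-87371074, 2037 bases). It had the most counts of the 10 genes, 65371 in the control and 40760 with erythrodiol. The ratio was 0.615 (0.607 to 0.622), and 1.87% of all tested genes had a lower one. It made 50.1% of the counts of the 10 genes in the control and 45.6% with erythrodiol. Without it the others summed to 529 and 390 CPM, a log2 ratio of -0.44.

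*Clec4f* encodes a C-type lectin of the mouse Kupffer cell (chr6:83644542-83656116, 2400 bases). Counts were 19293 in the control and 12507 with erythrodiol, with a ratio of 0.639 (0.625 to 0.653). The proportion of *Cd5l* to *Clec4f* differed little between the groups, with 3.39 and 3.26 counts of *Cd5l* for each count of *Clec4f* (log2 difference -0.06, counting interval -0.09 to -0.02). Against *Cd68* the proportion of *Clec4f* differed more, from 3.34 in the control to 2.08 with erythrodiol (log2 difference -0.68, counting interval -0.74 to -0.62).

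*Vsig4* encodes the complement receptor of the immunoglobulin superfamily that binds C3b-coated particles (chrX:96247201-96293438, 1432 bases). It had 8463 counts in the control against 5703 with erythrodiol, a ratio of 0.664 (0.642 to 0.687). *Timd4*, a receptor for phosphatidylserine on dying cells and a mark of macrophages of embryonic origin, had the fewest counts of the 10 genes (chr11:46810786-46844333, 1779 bases). They were 1549 and 1127, with a ratio of 0.717 (0.664 to 0.775). Both ratios lay below 1 with their whole counting interval.

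*Adgre1* encodes F4/80, the adhesion receptor by which mouse macrophages are commonly stained (chr17:57358581-57483529, 3180 bases). Its counts were 5786 in the control and 3487 with erythrodiol, and the ratio was 0.594 (0.569 to 0.620). Relative to genes of like length, 0.504% of tested genes were lower. *Clec4f* had 3.33 counts per count of *Adgre1* in the control and 3.59 with erythrodiol, so that this pair differed by a log2 value of 0.11 (0.04 to 0.17).

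*Csf1r*, the receptor for CSF1 and IL-34 on which macrophages depend (chromosome 18, 3698 bases), differed little by totals. It had 10771 counts in the control against 9724 with erythrodiol, a ratio of 0.890 (0.866 to 0.915). The log2 ratio was -0.39 relative to genes of like length and -0.33 with the median of all genes set to 0, both past 1.2-fold lower. *Adgre1* had 0.537 counts per count of *Csf1r* in the control and 0.359 with erythrodiol. The proportion of the pair was thus lower with erythrodiol (log2 difference -0.58, counting interval -0.66 to -0.51).

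*Cd68*, a glycoprotein of the lysosome in all macrophages (chr11:69664213-69666170, 1263 bases), had 5773 counts in the control against 6006 with erythrodiol. The ratio of 1.03 had an interval of 0.989 to 1.06, which holds 1. The log2 ratio of 0.04 became -0.13 with the median of all genes set to 0, so that no direction can be given for *Cd68*. Against *Cd68*, the count of *Vsig4* was lower with erythrodiol within the same column (log2 difference -0.63, counting interval -0.70 to -0.56).

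*Mertk*, a receptor tyrosine kinase for the uptake of apoptotic cells (chr2:128698915-128803162, 4342 bases), was higher with erythrodiol under scaling by totals. Counts were 3553 in the control against 4583 with erythrodiol, at a ratio of 1.27 (1.22 to 1.33). The log2 ratio was 0.35 by totals, 0.18 with the median of all genes set to 0 and 0.10 relative to genes of like length, and 68.1% of the tested genes were lower on the last scale. Both receptors for dying cells, *Timd4* and *Mertk*, differed in opposite directions by totals, from 0.436 to 0.246 counts of *Timd4* per count of *Mertk* (log2 difference -0.83, counting interval -0.95 to -0.70). Between *Marco* and *Mertk* the proportion went from 1.79 to 0.673.

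**Figure D3:**
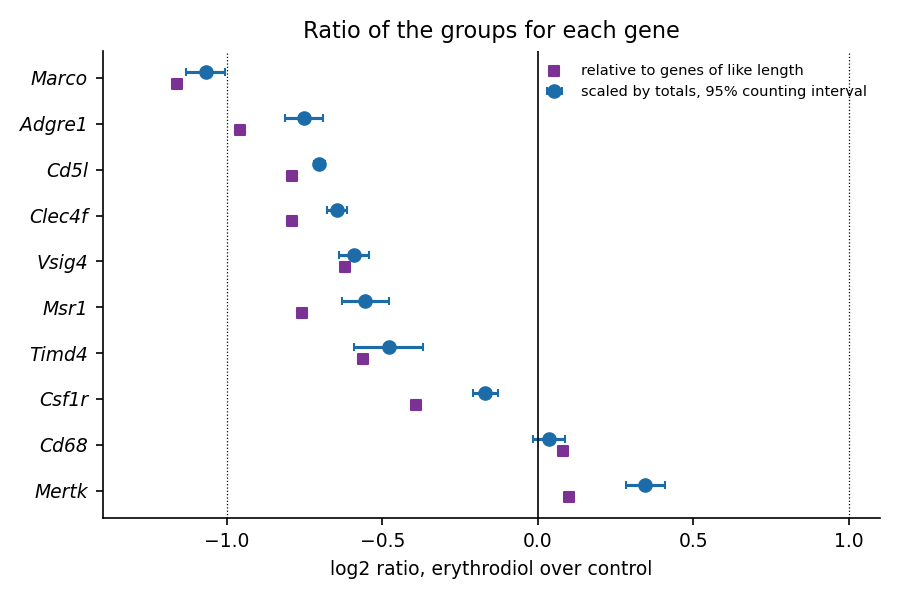
The log2 ratio of erythrodiol to control for each gene, scaled by totals (blue circles with 95% counting intervals) and relative to genes of like length (purple squares), with dotted lines at a 2-fold change. *Marco* lies beyond the line on the left, at -1.07, and *Cd68* and *Mertk* are the 2 genes to the right of 0.

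Levels were compared between the genes per length, as CPM for each kilobase. In the control the order of levels was *Cd5l* (261), *Clec4f* (65.4), *Vsig4* (48.1), *Cd68* (37.2), *Marco* (26.1), *Csf1r* (23.7), *Adgre1* (14.8), *Msr1* (7.83), *Timd4* (7.09) and *Mertk* (6.66). The counting intervals of the neighbours *Timd4* (6.74 to 7.45) and *Mertk* (6.44 to 6.88) overlapped. With erythrodiol the levels were 160 for *Cd5l*, 41.8 for *Clec4f*, 38.1 for *Cd68*, 31.9 for *Vsig4*, 21.1 for *Csf1r*, 12.5 for *Marco*, 8.79 for *Adgre1*, 8.47 for *Mertk*, 5.33 for *Msr1* and 5.08 for *Timd4*. *Cd68* thus stood before *Vsig4*, *Csf1r* before *Marco*, and *Mertk* before *Msr1* and *Timd4*. In that group the intervals of *Adgre1* (8.50 to 9.09) and *Mertk* (8.22 to 8.71) overlapped, as did those of *Msr1* (5.12 to 5.55) and *Timd4* (4.79 to 5.39).

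Promoter sequences were at hand for 7 of the 10 genes. They were searched for GAGGAA on both strands, the core letters of the motif of PU.1, a factor of the ETS family on which macrophages depend. Over the 250 bases before the start, 4 of the 7 promoters held it (*Marco*, *Vsig4*, *Cd5l* and *Cd68*), and so did 23.3% of all 32851 promoters of that length. A match is a description of the letters and not a binding site. In the nearest 150 bases 3 of the 7 held it, at 14.5% of all promoters. *Cd68* has its match farther out. These 3 promoters and, without a match, that of *Mertk* are given here 5′ to 3′ in the direction of the gene, from RefSeq on GRCm38.p6. Capitals mark GAGGAA or its reverse complement.
Marco, chr1:120505025-120505174, minus strand: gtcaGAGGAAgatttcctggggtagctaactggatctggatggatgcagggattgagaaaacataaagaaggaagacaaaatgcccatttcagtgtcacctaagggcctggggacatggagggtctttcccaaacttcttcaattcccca
Vsig4, chrX:96293439-96293588, minus strand: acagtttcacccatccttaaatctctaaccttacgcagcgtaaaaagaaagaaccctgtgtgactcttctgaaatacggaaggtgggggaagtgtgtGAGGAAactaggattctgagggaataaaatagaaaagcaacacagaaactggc
Cd5l, chr3:87357731-87357880, plus strand: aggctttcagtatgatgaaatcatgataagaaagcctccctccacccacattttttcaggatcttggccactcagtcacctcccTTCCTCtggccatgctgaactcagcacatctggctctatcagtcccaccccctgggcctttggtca
Mertk, chr2:128698765-128698914, plus strand: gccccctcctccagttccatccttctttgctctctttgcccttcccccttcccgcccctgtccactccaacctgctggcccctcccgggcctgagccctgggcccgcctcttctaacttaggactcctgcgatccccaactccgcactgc
The match lies 146 bases before the start in *Marco*, 53 in *Vsig4* and 66 in *Cd5l*, and *Vsig4* and *Cd68* have a further one at 155 and 225 bases. In the promoters of *Clec4f* and *Timd4*, with ratios of 0.639 and 0.717, these letters were not found in the window. A relation of the match to the ratio of a gene was not tested.

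Of the 10 genes, 4 had new coding transcripts assembled from the pooled libraries. *Csf1r* had 4 of them with 22 exons each, and *Adgre1*, *Clec4f* and *Mertk* had 1 each, with 20, 8 and 19 exons. Among all tested genes 35.8% had a new coding transcript. In the deposited annotation, 8 of the 10 genes carried the term integral component of membrane, which 24.2% of the annotated genes carry, and 5 carried plasma membrane, at 16.3%.

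Other genes of Kupffer cell identity differed less as a list. Of 22 such genes, 14 were lower and 8 higher by totals. Relative to genes of like length 12 were past 1.2-fold lower and 1 higher, at 17.7% and 9.55% of all genes. The median log2 ratio was -0.14 by totals and -0.27 relative to length, and their sum was 1060 and 1120 CPM. That sum rests on *C6*, a complement component, at 263 and 330 CPM, and *Slc40a1*, the iron exporter ferroportin, at 187 and 210 CPM, without which the other 20 genes summed to 610 and 579 CPM. The lowest was *Clec1b*, the C-type lectin CLEC-2, with 2869 counts in the control against 1639 with erythrodiol. *Spic*, a transcription factor of iron-recycling macrophages, had 532 and 352 counts, and *Cd207*, the lectin langerin, 944 and 682. *Fcgr1*, the high-affinity receptor for IgG, had 1755 and 1322. The others past 1.2-fold lower relative to length were *Fcna*, *Il18bp*, *Slc11a1*, *Sirpa*, *Lilra5*, *Ptgs1*, *Cd38* and *Kcna2*, with log2 ratios between -0.32 and -0.01 by totals. *Cd163*, the scavenger receptor for haemoglobin bound to haptoglobin, was higher, with 211 counts in the control against 321 with erythrodiol.

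Genes shared by most macrophages were lower in all 18 of 18 cases by totals, at 28.8% of all tested genes, and in 17 of 18 relative to genes of like length, with *Fcer1g* as the exception on the second scale. Their summed level was 1372 and 1021 CPM. The median log2 ratio was -0.35 by totals. Past 1.2-fold lower were 16 relative to length, at 17.7% of all genes, and 11 by totals, at 11.4%. *Aif1*, the actin-binding protein IBA1, had 1337 counts in the control against 693 with erythrodiol. *Tyrobp*, the adaptor DAP12, had 6499 and 3760, and *Lyz2*, lysozyme, 34731 and 22897. The subunits of complement C1q, *C1qa*, *C1qb* and *C1qc*, had log2 ratios of -0.60, -0.41 and -0.45. *Spi1*, which encodes PU.1, had 2311 and 2012 counts. Others past 1.2-fold lower relative to length included *Cd14*, *Ctss*, *Fcgr3*, *Ptprc*, *Mpeg1*, *Itgb2*, *Itgam* and *Cybb*. Of these, *Mpeg1*, *Itgb2*, *Itgam* and *Cybb* were not past 1.2-fold by totals, with ratios of 0.850, 0.864, 0.865 and 0.906.

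Markers of recruited monocytes and of lipid-associated macrophages were mostly lower as well. Of the 12 monocyte genes 10 were past 1.2-fold lower relative to length and 0 higher, at 17.7% and 9.55% of all genes. Their sum was 102 and 76.2 CPM, with a median log2 ratio of -0.33 by totals. *Plac8* had 2187 counts in the control against 1122 with erythrodiol, and *Ccr2*, the chemokine receptor of inflammatory monocytes, 1013 and 806. Others included *Chil3*, *Ly6c2*, *Clec12a*, *Ms4a7*, *Itgal*, *F13a1* and *Vcan*. By totals 7 of the 12 were past 1.2-fold lower and 0 higher, at 11.4% and 33.7% of all genes. On that scale *Vcan* (ratio 1.06) and *Cx3cr1* (1.09) were slightly higher, and the counting interval of *F13a1* (log2 -0.56 to 0.15) held 0. Of the 10 lipid-associated genes 7 were past 1.2-fold lower relative to length and 0 higher. By totals 6 were past 1.2-fold lower and 0 higher. Their sum was 459 and 388 CPM, with a median of -0.38 by totals. *Trem2*, a lipid-sensing receptor, had 1557 and 1175 counts and *Spp1*, osteopontin, 12503 and 8363. The others past 1.2-fold lower relative to length were *Cd63*, *Lgals3*, *Mmp12*, *Gpnmb* and *Itgax*. By totals the counting interval of *Itgax* (log2 -0.21 to 0.04) held 0. *Lpl*, with the most counts of the list, was higher by totals, at 127 and 139 CPM (ratio 1.09, log2 counting interval 0.10 to 0.16).

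The niche signals and lineage factors were close to the background by totals, with 12 of the 16 genes higher, at 71.2% of all tested genes. Relative to genes of like length 5 were higher and 11 lower. On that scale 1 was past 1.2-fold higher and 2 lower, at 9.55% and 17.7% of all genes. *Csf1*, a ligand of *Csf1r*, had 2159 counts in the control against 2535 with erythrodiol, and *Il34*, the other ligand, 310 and 312. *Irf8* and *Acvrl1* were past 1.2-fold lower relative to length and *Bmp10* higher, the latter at 68 and 104 counts. Among 14 genes of apoptotic cell uptake, 8 were past 1.2-fold lower relative to length and 0 higher, at 17.7% and 9.55% of all genes. By totals the counts were 2 lower (*Cd36* and *Rac2*) and 2 higher (*Stab1* and *Dock1*, log2 ratios 0.28 and 0.41), with a median of -0.04. *Cd36*, a fatty acid and scavenger receptor that hepatocytes also express, had the lowest ratio, with 21278 and 13007 counts. *Gas6* and *Pros1*, the bridging ligands of Mertk, had log2 ratios of -0.03 and -0.02. The others past 1.2-fold lower relative to length were *Rac2*, *Mfge8*, *Cd300lf*, *Tyro3*, *Elmo1*, *Axl* and *Dock2*, of which *Axl* (ratio 0.968) and *Dock2* (0.999) were nearly equal by totals.

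Markers of other liver cells were read in the same way. Relative to length, 17.7% of all tested genes were past 1.2-fold lower and 9.55% higher, and the counts below stand beside these shares. The 10 hepatocyte genes had a median log2 ratio of 0.17 by totals, with 7 of 10 higher, close to the 71.2% of all tested genes, and *Asgr1* was the gene past 1.2-fold lower relative to length. The 10 sinusoidal endothelial genes had a median of 0.07 by totals and -0.10 relative to length, with 7 of 10 lower on the second scale and none past 1.2-fold relative to length, and those with the most counts, *Eng* and *Dnase1l3*, had log2 ratios of 0.28 and 0.43 by totals, while *Clec4g* (-0.26), *Fcgr2b* (-0.10) and *Lyve1* (-0.06) were lower. The 9 stellate cell genes had a median of 0.04 and 3 past 1.2-fold lower relative to length (*Dcn*, *Lrat* and *Col3a1*). Medians by totals were -0.03 for 10 lymphocyte genes and 0.04 for 7 dendritic cell genes. Of the lymphocyte genes, *Ms4a1*, *Cd3g*, *Klrb1c* and *Cd8a* were past 1.2-fold lower and *Nkg7* higher relative to length. *Flt3* and *Siglech* were the dendritic cell genes past 1.2-fold lower on that scale. By totals, the counting interval of the log2 ratio lay below 0 for 2 lymphocyte genes, *Ms4a1* and *Cd3g*. It held 0 for the other lymphocyte genes and for all 7 dendritic cell genes.

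Among the markers of other cells, bile duct genes and part of the neutrophil genes were lower. Of 10 neutrophil genes 4 had at least 100 counts, and of these *S100a8* and *S100a9*, subunits of calprotectin, were past 2-fold lower, at 411 and 183 counts and at 702 and 329. The other two were not lower by totals, with ratios of 1.01 for *Csf3r* and 1.30 (log2 ratio 0.38, counting interval 0.04 to 0.71) for *Cxcr2*. The 10 neutrophil genes summed to 21.0 CPM in the control and 15.8 with erythrodiol. The granule genes were below 100 counts, and of these *Camp*, *Mpo* and *Elane* had at most 24 counts in a group. *Ltf* had 59 and 16 counts (log2 ratio -1.90, counting interval -2.80 to -1.09). *Ngp* had 36 and 19 counts (log2 ratio -0.94, counting interval -1.83 to -0.10). *Ly6g*, also below 100 counts, was not lower, with 39 and 45 counts (log2 ratio 0.20, counting interval -0.47 to 0.84). Over all 10 genes the counting interval lay below 0 for 5 and above 0 for 1. Of 6 bile duct genes, 5 had at least 100 counts. All 5 (*Krt19*, *Spp1*, *Epcam*, *Krt7* and *Sox9*) were past 1.2-fold lower relative to length, at 17.7% of all genes. By totals the counting intervals of *Krt7* (log2 -0.62 to 0.03) and *Sox9* (log2 -0.22 to 0.04) held 0. The bile duct genes summed to 117 and 79.3 CPM, of which *Spp1*, which macrophages also express, made 102 and 67.1. None of these markers was at 0 in a group. The part of these cells in the values of the 10 genes was not tested.

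**Figure D4:**
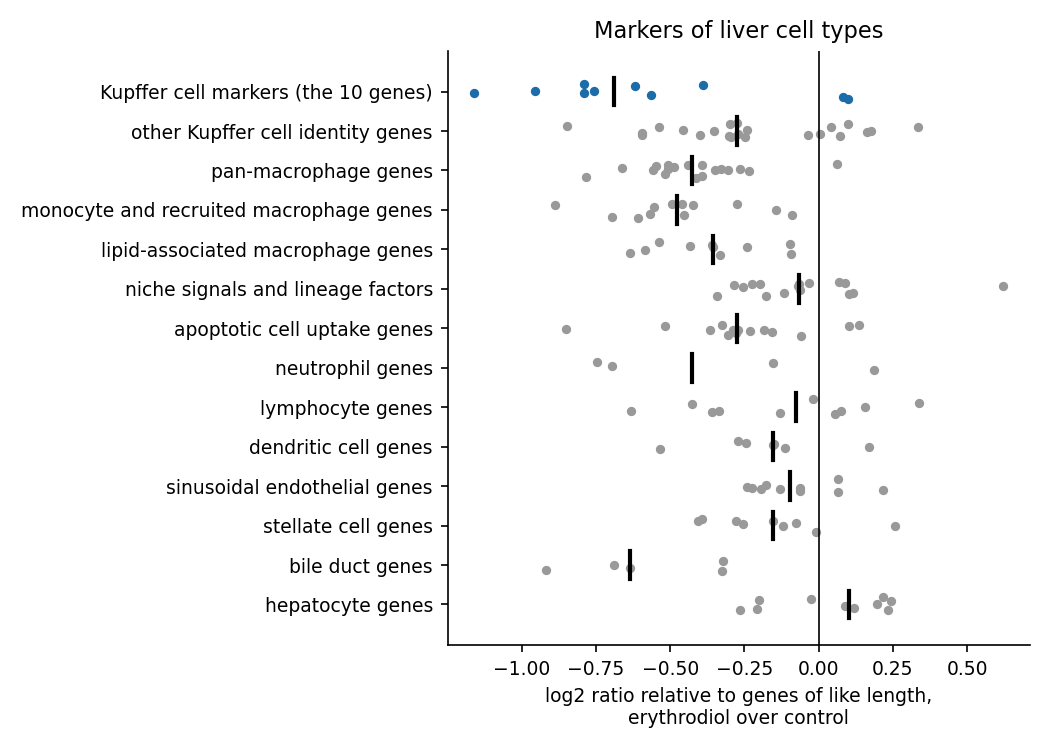
The log2 ratio of erythrodiol to control relative to genes of like length, for the genes with at least 100 counts of each list, with 1 point per gene and a bar at the median of the list. The median of the 10 Kupffer cell markers (blue) is -0.69, that of the pan-macrophage genes -0.43 and that of the hepatocyte genes 0.10.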

How the data were processed

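The labels of the 14 samples gave each its group and replicate number. Per the paper's methods, the authors filtered reads, mapped them with Bowtie2 to the reference merged with new coding transcripts, and counted them with RSEM; versions are not given in the sources used here. The authors deposited an expected count per gene, summed over the libraries of each group and not normalized, beside a ratio, p-value and q-value of their own that were not used. Their tables of differential splicing events are not reported. For each library, counts of clean reads and the percent mapped to genes were deposited. New transcripts carry accessions of GRCm38, and gene coordinates are from RefSeq on that build.

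Ratios were scaled by the column totals, and counting intervals are exact binomial at 95% on rounded counts, exact Poisson for levels and by a normal approximation for pairs of genes. Genes that reached 100 counts over both groups entered the background. A gene was set against the 200 genes nearest in length. With 1 pooled value per group no test was made. The design named all 10 members and, of each other list, the genes past 1.2-fold relative to length or, failing these, the 2 with the most counts; some genes of the lists are not reported here by name. Neighbouring genes named beside these, and the pairs of members, were chosen after their values were seen. Members and lists were chosen with earlier results of these data known. The computation was checked on data with known changes. The tools were scipy 1.17.1, pandas 2.3.3 and numpy 2.4.6 under Python 3.11.15, with figures by matplotlib 3.10.9. Alternatives were other scalings, minimum counts, a pseudocount and other numbers of genes of like length, and scaling by the summed pan-macrophage genes was added after seeing the data.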

Additional observations from a re-analysis of the deposited data

Results flagged for a closer look

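Control replicate 3 mapped 64.33% of its clean reads to genes, the lowest of the 14 libraries, and its gap to the nearest control library was 0.588 of the range of the control group, above the critical value of 0.568 for 7 libraries. Chance marks about 1 in 20 groups in this way for a single measure. The same rule was applied in both groups to clean reads and to the percent mapped to a unique gene, and no other library was marked. With several measures read, a mark by chance is more frequent than 1 in 20. This library supplied 9.12% of the mapped read pairs of the control, the least of the 7, and its part in the counts of the Kupffer cell markers could not be separated.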

How the results depend on the processing

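The median log2 ratio of the 10 markers, -0.57 by totals, was -0.73 with the median of all genes set to 0, -0.68 by totals without the 100 most abundant genes and -0.74 by a trimmed mean of log2 ratios. Under each of these 3 scalings 0 of the 10 were past 1.2-fold higher and 8 lower, and *Cd68* was below 0, while *Mertk* was above 0. Scaled by the summed pan-macrophage genes, the median was -0.15, with 0 past 2-fold, 2 past 1.2-fold higher and 3 lower, and *Csf1r* (0.26), *Cd68* (0.46) and *Mertk* (0.77) were above 0. A change of scaling shifts all genes equally and so cannot alter the values relative to genes of like length. Under the other alternatives the median on that scale lay between -0.70 and -0.67. A pseudocount of 1 and other minimum counts left the counts past 1.2-fold and 2-fold as they were. The largest share of a control library was 16.9% in clean reads and 17.3% in mapped read pairs. No paired analysis was possible because the gene counts are pooled per group and carry no replicate numbers. Leaving out a library was not possible for the same reason, so that 1 library could decide a difference without being seen here.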
